A study of Mus musculus with 8 samples.

Results

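The genes described here are 39 genes of fatty acid oxidation and ketone body metabolism, listed by gene name and matched to array probes by current symbol or older alias. They were chosen with earlier results of these data known. Of these, 38 had a probe on the array, and 32 had a probe that was detected well enough to be tested, out of 11686 tested genes in all. They were grouped by role: 2 regulators, 4 genes of uptake and activation, 5 of the carnitine steps, 13 of mitochondrial beta-oxidation, 3 of the electron transfer flavoprotein, 7 of peroxisomal beta-oxidation, 2 of the ketone body steps and 3 other targets of PPAR-alpha.

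Liver RNA samples of 8 male C57BL/6J mice, listed as 25 weeks old, were hybridised to Illumina single-colour bead arrays. The labels number the samples of a group as replicates with a sample name each, taken here as 1 mouse each, and p-values measure the spread between these samples. All 8 mice had eaten a diet with 60% of its calories from fat since 6 weeks of age, and injections began after 14 weeks of it. The control ASO group (4 mice) was given a scrambled antisense oligonucleotide, a short synthetic strand that pairs with no intended RNA, and the Mogat1 ASO group (4 mice) was given one directed against Mogat1, a monoacylglycerol acyltransferase that makes diacylglycerol. Both were given at 25 mg/kg into the peritoneum, 2 times a week for 3 weeks. The oligonucleotides were injected into the whole animal, so neither group is a hepatocyte-specific model, and no group on a low-fat diet or without injection was analysed here. The only Mogat1 probe was not well above background on any array (lowest detection p-value 0.814), so the lowering of the target itself could not be read.

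In beta-oxidation, fatty acids are taken up by the liver cell, bound to coenzyme A, carried into mitochondria on carnitine and shortened in repeated cycles of dehydrogenation, hydration, dehydrogenation and thiolysis. Peroxisomes run a parallel set of reactions for very long, branched and dicarboxylic acids, and auxiliary isomerases and reductases prepare unsaturated chains for either pathway. In fasting the liver turns the acetyl-CoA produced into ketone bodies for other tissues, and the nuclear receptor PPAR-alpha, bound with RXR to repeats of the AGGTCA half-site, switches on many genes of these pathways in mouse liver.

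Levels below are normalized log2 signals, given for replicates 1 to 4 in that order, and a difference is the mean of the Mogat1 ASO group minus that of the control ASO group with the standard error (SE) of the limma fit. Median signals of the arrays were 84.25 to 112, and 15788 to 16944 probes were detected on an array. Neither measure differed between the groups beyond the spread of mice (exact two-sided permutation tests, p = 0.8286 and p = 0.4571, n = 4 per group, smallest possible p 0.0286). Replicate 1 of each group stood apart on the second principal component over all tested genes (1 probe each), which held 19.3% of the variance. These arrays scored 12.59 and 29.37 while the other 6 lay between -13.57 and -0.49. The values of members that passed the test, or moved by more than 1.5 times, with both left out are given after the steps. Because whole liver was measured, fewer cells of a type and less RNA per cell cannot be told apart.

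Promoter sequences (RefSeq, GRCm38.p6) are shown because PPAR-alpha binds near many of these genes; each window runs from 250 bases before to 50 bases after the gene's start and is written 5′ to 3′ on the gene's strand. Capitals mark each match on either strand to the half-site AGGTCA, and each stretch within 2 mismatches of the direct repeat AGGTCANAGGTCA, which contains that half-site. Fabp1 (the liver fatty acid binding protein) held the closest match to the repeat among the members, Acadm (medium-chain acyl-CoA dehydrogenase) held a half-site alone, and Eci2 (an enoyl-CoA isomerase, the member that passed the test) held neither.
Fabp1, chr6:71199629-71199928, plus strand: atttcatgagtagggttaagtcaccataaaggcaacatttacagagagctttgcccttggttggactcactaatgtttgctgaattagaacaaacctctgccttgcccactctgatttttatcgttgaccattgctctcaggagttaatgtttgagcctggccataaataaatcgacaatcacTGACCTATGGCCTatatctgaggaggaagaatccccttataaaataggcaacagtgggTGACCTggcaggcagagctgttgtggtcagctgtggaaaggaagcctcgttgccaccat
Acadm, chr3:153944594-153944893, minus strand: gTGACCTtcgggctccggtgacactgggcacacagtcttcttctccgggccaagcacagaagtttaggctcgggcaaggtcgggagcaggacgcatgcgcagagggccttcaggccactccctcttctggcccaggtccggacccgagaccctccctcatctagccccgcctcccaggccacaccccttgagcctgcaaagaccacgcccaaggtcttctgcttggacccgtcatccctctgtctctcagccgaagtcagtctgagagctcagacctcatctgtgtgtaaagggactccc
Eci2, chr13:34994095-34994394, minus strand: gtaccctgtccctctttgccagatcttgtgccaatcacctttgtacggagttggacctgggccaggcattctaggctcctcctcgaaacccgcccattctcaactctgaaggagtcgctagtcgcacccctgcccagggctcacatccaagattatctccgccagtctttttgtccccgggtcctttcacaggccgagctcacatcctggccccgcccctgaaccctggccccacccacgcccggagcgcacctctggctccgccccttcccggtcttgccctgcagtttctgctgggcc
The repeat match in the Fabp1 window was AGGCCATAGGTCA on the strand opposite to the gene, at chr6:71199812-71199824, with 1 mismatch and its first base at position -67 from the start. Windows were available for 32 of the 39 members (36 windows), which are not the same 32 genes as those tested. Some, such as Fabp1 and Hadha, were not tested, and some tested genes, such as Acat1 and Crat, had no window. The half-site occurred in 7 of these windows (19.4%), beside 16.3% of all 32851 windows of the same length. No member window held the exact repeat (0.0396% of all windows did), 1 held it within 1 mismatch (2.78%, beside 0.554%), and 5 within 2 mismatches (13.9%, beside 3.86%). The other 4 were in Cd36 (AAGTCAGAGGCCA), Creb3l3 (AGGGGAGAGGTCA), Etfa (AGGGCAAAGGTAA) and Acox2 (AGGACAGAGGTGA). The windows of Hadha and Hadhb, which encode both subunits of the mitochondrial trifunctional protein and are read in opposite directions, shared 228 bases on chromosome 5. These matches describe letters in a window and say nothing of binding.

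Among the 32 tested genes, 1 fell with the Mogat1 ASO (Eci2), none rose and 31 did not pass the test (limma with Benjamini-Hochberg adjustment over all 16487 tested probes, threshold 0.05). Over all tested genes, 6.12% were lower and 7.14% were higher, so a single lower gene of 32 (3.12%) is no more than the background. Counts here take the brightest tested probe of each gene. The groups did not overlap for 1 member, lower (Eci2), and for none higher. Of all tested genes, 8.81% had non-overlapping groups with the Mogat1 ASO lower and 10.3% with it higher. At an unadjusted p under 0.05 there were 5 members, all lower (Eci2, Slc27a2, Acadm, Acadsb and Etfdh); this is 15.6% of the members, beside 28.8% of all tested genes. The differences ran from -0.58 to 0.33 with a median of -0.16, against a median of -0.00 over all tested genes; 22 were below 0 and 10 above. In 27 of the 32 the 95% interval of the difference held 0, and in 15 it lay wholly between -0.5 and 0.5.

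**Figure D1:**
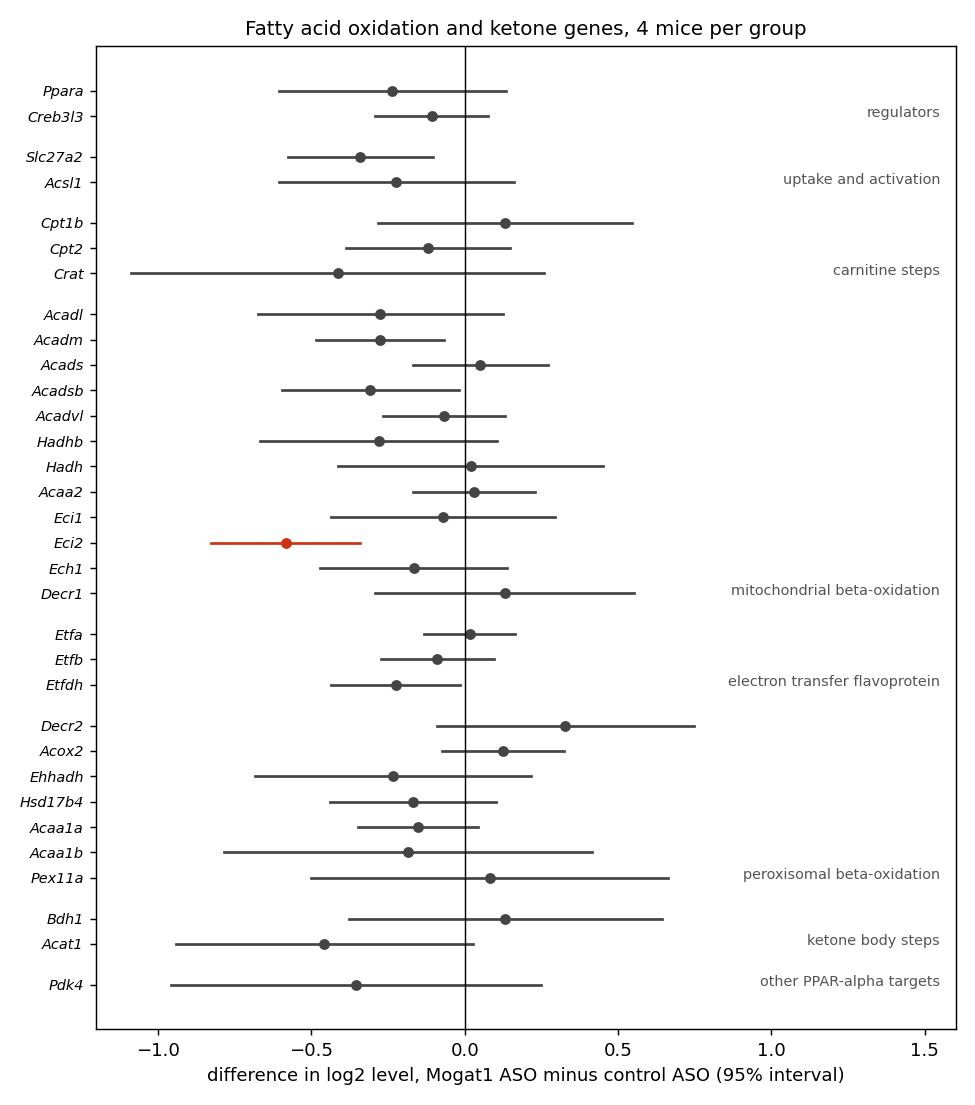
Difference in normalized log2 level, Mogat1 ASO minus control ASO, for the 32 tested genes ordered by step; points are differences from the limma fit and bars their 95% intervals (n = 4 mice per group). Eci2, in red, passed the test at -0.58; the other 31 points lie between -0.46 and 0.33.

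The member that passed the test, Eci2, was grouped here with mitochondrial beta-oxidation. Eci2, an isomerase that moves double bonds of unsaturated acyl-CoA and is found in mitochondria and peroxisomes (the array lists it as Peci), had levels of 10.31, 10.43, 10.55 and 10.77 in control livers. In Mogat1 ASO livers its levels were 9.88, 10.10, 9.82 and 9.92. Every control value lay above every Mogat1 ASO value. The means were 10.51 ± 0.20 and 9.93 ± 0.12 (SD, n = 4 each), a difference of -0.58 (SE 0.11, 95% interval -0.83 to -0.34, limma adjusted p = 0.00701), or 1.498-fold lower. The call held under all 20 other settings, with differences of -0.65 to -0.50.

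The chain-length dehydrogenases, which take the first oxidation step, did not pass the test. Acadm had levels of 14.08, 14.28, 14.34 and 14.31 in control livers and 13.76, 14.08, 14.11 and 13.96 in Mogat1 ASO livers. The groups overlapped by 1 pair, since control replicate 1 lay below Mogat1 ASO replicate 3, and the difference was -0.28 (SE 0.09, limma adjusted p = 0.0806). Acadsb, the short/branched-chain dehydrogenase, had levels of 8.67, 9.08, 8.89 and 8.64 against 8.73, 8.61, 8.43 and 8.28. Its groups overlapped, with a difference of -0.31 (SE 0.13, limma adjusted p = 0.152). Acadl, the long-chain dehydrogenase, had levels of 8.52, 9.32, 9.34 and 8.94 against 8.70, 9.01, 8.84 and 8.47. The lowest 2 of its 8 values came 1 from each group, and the difference was -0.27 (SE 0.18, adjusted p = 0.361). A second Acadl probe of similar brightness differed by -0.05 (limma adjusted p = 0.815). On their brightest probes, Acads (short-chain) and Acadvl (very-long-chain) differed by 0.05 and -0.07. A dimmer Acads probe differed by 0.30 (limma adjusted p = 0.109), with every Mogat1 ASO value above every control value.

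Of the trifunctional protein, which performs the remaining steps on long chains, only the beta subunit could be read, since no probe carried the symbol or an alias of Hadha. Hadhb had levels of 9.89, 10.52, 10.76 and 10.68 in control livers and 10.13, 10.44, 9.98 and 10.18 in Mogat1 ASO livers. Control replicate 1 was the lowest of all 8 arrays and the other 3 controls were the highest, and the difference was -0.28 (SE 0.18, limma adjusted p = 0.333). The later enzymes differed little: Hadh, the hydroxyacyl-CoA dehydrogenase (listed as Hadhsc, detected on 4 arrays), by 0.02 and Acaa2, the mitochondrial thiolase, by 0.03. The auxiliary enzymes of unsaturated chains, Eci1 (listed as Dci), Ech1 and Decr1, differed by -0.07, -0.17 and 0.13. Across the 12 tested mitochondrial genes the median difference was -0.12, with 8 below 0 and 4 above.

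The electron transfer flavoprotein passes the electrons of these dehydrogenases to the respiratory chain through its dehydrogenase, Etfdh. Etfdh had levels of 11.10, 11.13, 11.23 and 11.11 in control livers and 10.69, 11.11, 10.91 and 10.97 in Mogat1 ASO livers. The groups overlapped by the second Mogat1 ASO array alone, and the difference was -0.22 (SE 0.10, limma adjusted p = 0.151). The subunits Etfa and Etfb differed by 0.02 and -0.09 on their brightest probes. Other probes of both gave lower values: a dimmer Etfa probe differed by -0.33, and a dimmer Etfb probe passed the test at -0.28 (limma adjusted p = 0.0437). Among the 12 members with more than 1 tested probe, 9 had the same sign in all of them, and the median gap between probes of a gene was 0.18.

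Both regulators had lower means without passing the test. Ppara had levels of 7.22, 7.81, 8.03 and 7.59 in control livers and 7.48, 7.31, 7.64 and 7.27 in Mogat1 ASO livers. The lowest of the 8 values was a control, and the difference was -0.24 (SE 0.17, limma adjusted p = 0.399). Creb3l3, a liver transcription factor that is activated in fasting and works with PPAR-alpha, differed by -0.11 (SE 0.08, adjusted p = 0.449).

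In uptake and activation, Slc27a2, a transporter and very-long-chain acyl-CoA synthetase, came closest to the threshold after Eci2 on the brightest probes. Its levels were 13.69, 13.88, 14.15 and 13.91 in control livers and 13.77, 13.57, 13.43 and 13.50 in Mogat1 ASO livers. A single pair overlapped, replicate 1 of both groups, and the difference was -0.34 (SE 0.11, limma adjusted p = 0.0615). A second, slightly dimmer Slc27a2 probe differed by -0.16 (adjusted p = 0.400). Acsl1, the main long-chain acyl-CoA synthetase of liver, had levels of 11.03, 11.64, 11.86 and 11.40 against 10.90, 11.54, 11.30 and 11.30. Replicate 1 was the lowest in each group, and the difference was -0.22 (SE 0.17, adjusted p = 0.448).

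The carnitine steps move acyl groups across the mitochondrial membranes. Crat, carnitine acetyltransferase, had levels of 8.19, 9.005, 9.10 and 9.39 in control livers and 7.69, 9.14, 8.79 and 8.41 in Mogat1 ASO livers. Replicate 1 was again the lowest of each group, by more than the difference between the groups, which was -0.41 (SE 0.31, limma adjusted p = 0.420). Cpt2, which releases acyl-CoA inside the mitochondrion, differed by -0.12 (SE 0.12), and Cpt1b, the muscle form of the gatekeeping transferase, by 0.13 (SE 0.19) (detected on 7 arrays). The liver form, Cpt1a, was near background: its brighter probe was detected on 1 control array, with levels of 5.20, 4.96, 5.29 and 5.04 in control livers and 4.68, 4.86, 4.82 and 4.65 in Mogat1 ASO livers. The groups did not overlap, but the probe was under the detection filter and was not tested.

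The peroxisomal genes were spread to both sides of 0. Decr2, a peroxisomal dienoyl-CoA reductase, had levels of 8.94, 9.27, 9.58 and 9.51 in control livers and 9.10, 9.89, 9.70 and 9.92 in Mogat1 ASO livers. Mogat1 ASO replicates 2, 3 and 4 were the highest of the 8, and the difference of 0.33 (SE 0.19, limma adjusted p = 0.295) was the largest upward one among the members. Ehhadh, the bifunctional enzyme of the classical peroxisomal pathway, had levels of 7.37, 8.10, 8.21 and 7.84 against 7.26, 8.06, 7.77 and 7.49. Its groups overlapped widely, with a difference of -0.23 (SE 0.20, adjusted p = 0.503). Acaa1b, a peroxisomal thiolase, had levels of 14.55, 15.31, 15.55 and 15.45 against 14.24, 15.55, 15.30 and 15.03. It differed by -0.18 (SE 0.27, adjusted p = 0.713), and its close copy Acaa1a by -0.15; signal may be shared between these near-identical genes, so their values are uncertain. Acox2 (the oxidase of branched chains and bile acid precursors), Hsd17b4 (the second bifunctional enzyme) and Pex11a (a peroxisome division factor) differed by 0.13, -0.17 and 0.08.

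For the ketone body steps, Acat1, the mitochondrial acetoacetyl-CoA thiolase, had levels of 7.41, 8.003, 8.29 and 8.31 in control livers and 7.06, 7.93, 7.55 and 7.65 in Mogat1 ASO livers. Control replicates 2, 3 and 4 were above all Mogat1 ASO values and control replicate 1 was below 3 of them. The difference was -0.46 (SE 0.22, limma adjusted p = 0.205), the second in size among the members. Bdh1, which interconverts acetoacetate and 3-hydroxybutyrate, had levels of 11.57, 12.49, 12.59 and 12.63 against 12.08, 12.82, 12.67 and 12.25. It differed by 0.13 (SE 0.23, adjusted p = 0.760).

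Of the other PPAR-alpha targets, Pdk4, the kinase that shuts off pyruvate dehydrogenase when fat is burned, was measured at 5.73, 6.69, 6.12 and 6.94 in control livers and 5.40, 6.38, 6.16 and 6.12 in Mogat1 ASO livers. Its groups overlapped, with a difference of -0.35 (SE 0.27, limma adjusted p = 0.442).

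Besides Cpt1a, the 5 members Cd36 (a fatty acid translocase), Fabp1, Crot (the peroxisomal carnitine octanoyltransferase), Ucp2 (a mitochondrial carrier) and Vnn1 (a pantetheinase) were not detected on any array. Their lowest detection p-values were 0.377, 0.327, 0.454, 0.0951 and 0.658. For Ucp2 the 4 Mogat1 ASO values of the probe nearest to detection, 4.93, 4.70, 4.97 and 4.78, lay above the control values of 4.55, 4.61, 4.62 and 4.56, without a test. Fabp1 is one of the most abundant transcripts of liver, and the hepatocyte genes Alb, Tat and Fgb were also undetected on all arrays while Apoa1, Ttr, Serpina1c, Asgr1, Cps1 and Hnf4a were detected on all 8. A probe below background here is therefore not a reading of a silent gene.

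**Figure D2:**
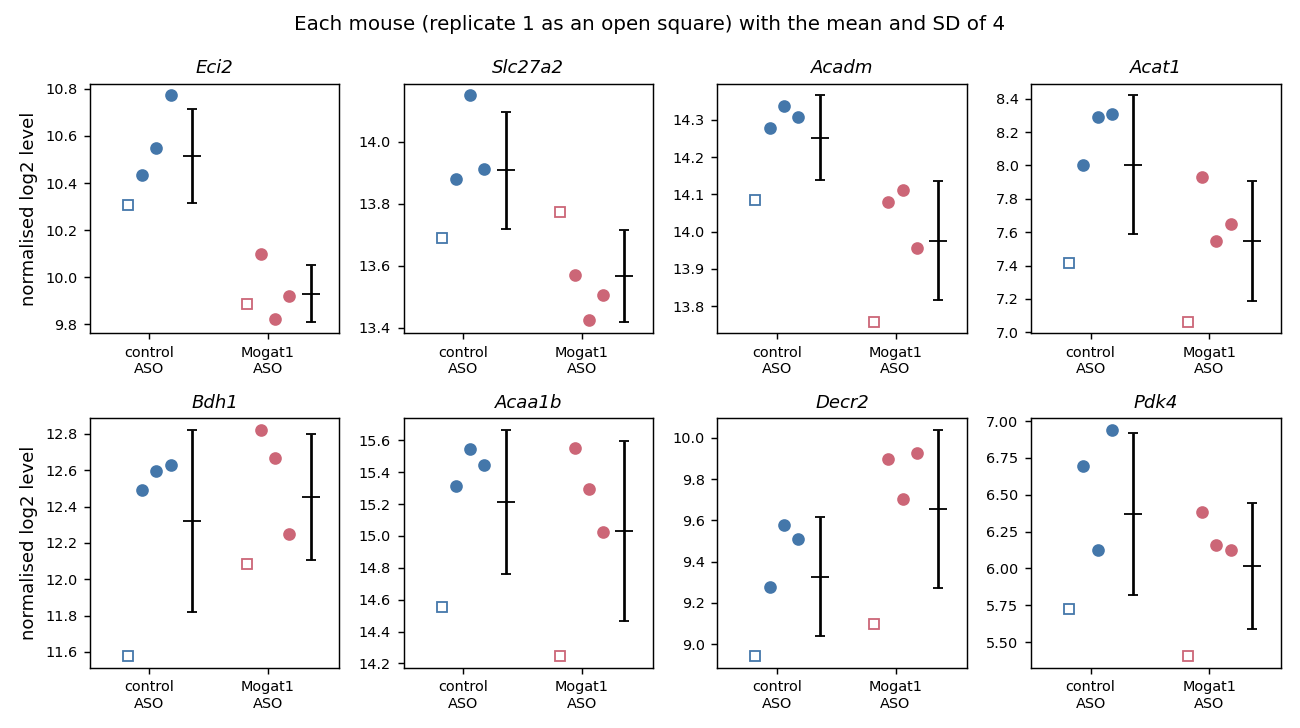
Normalized log2 level of selected genes on each array, one point per mouse (replicate 1 as an open square) with the group mean and SD (n = 4). Eci2 separates the groups, 10.31 to 10.77 against 9.82 to 10.10, while the other genes overlap.

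The spread between mice was wide for these genes. The median within-group SD was 0.257 over the 32 members and 0.178 over all tested genes, and 20 members lay above the latter, while the median size of the difference was 0.168 and 0.172. In 9 members the difference was larger than the SD, beside 48.9% of all tested genes.

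Much of the spread moved with replicate 1. Control replicate 1 was the lowest of its group in 27 of 32 members (84.4%, beside 31.8% of all tested genes) and Mogat1 ASO replicate 1 in 22 (68.8%, beside 28.5%). Both were lowest in 20 members (62.5%, beside 10.3%). These were 6 of 7 peroxisomal genes, all 3 carnitine and both ketone genes, 5 of 12 mitochondrial genes and some of the other steps. In the 83 tested genes of the wider list below, the corresponding shares were 60.2%, 47% and 33.7%, so the pattern was not particular to the members. Centred on each gene's mean, the median member stood at -0.29, 0.14, 0.22 and 0.13 on the control arrays and at -0.30, 0.12, 0.01 and -0.08 on the Mogat1 ASO arrays. Among the steps with more than 1 tested gene, the 2 ketone genes were farthest down, at -0.59 on control replicate 1 and -0.51 on Mogat1 ASO replicate 1.

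**Figure D3:**
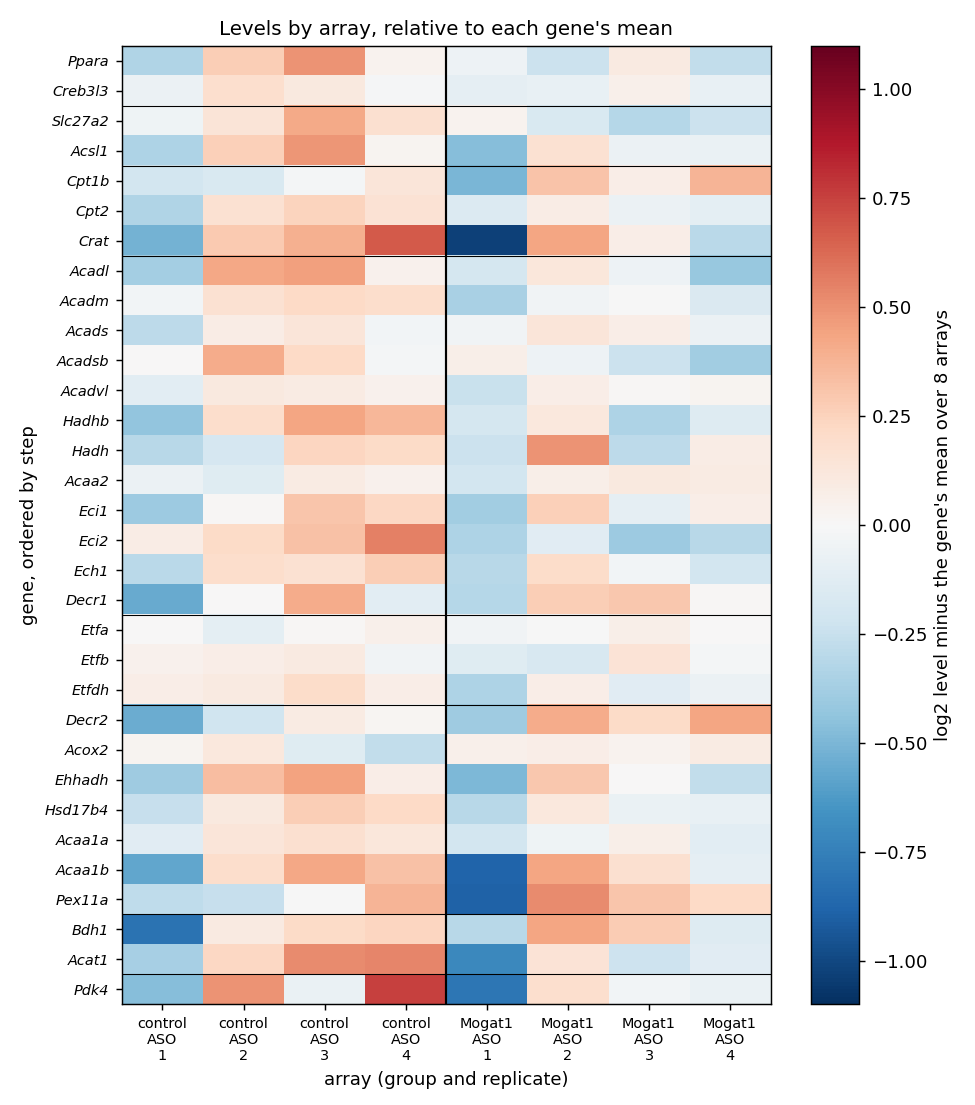
Normalized log2 level of each of the 32 tested genes (rows, by step) on each of the 8 arrays (columns), minus the gene's mean over the 8 arrays; blue is below and red above that mean. The columns of replicate 1 of both groups are blue for most genes, and the row of Eci2 changes colour between the groups.

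**Figure D4:**
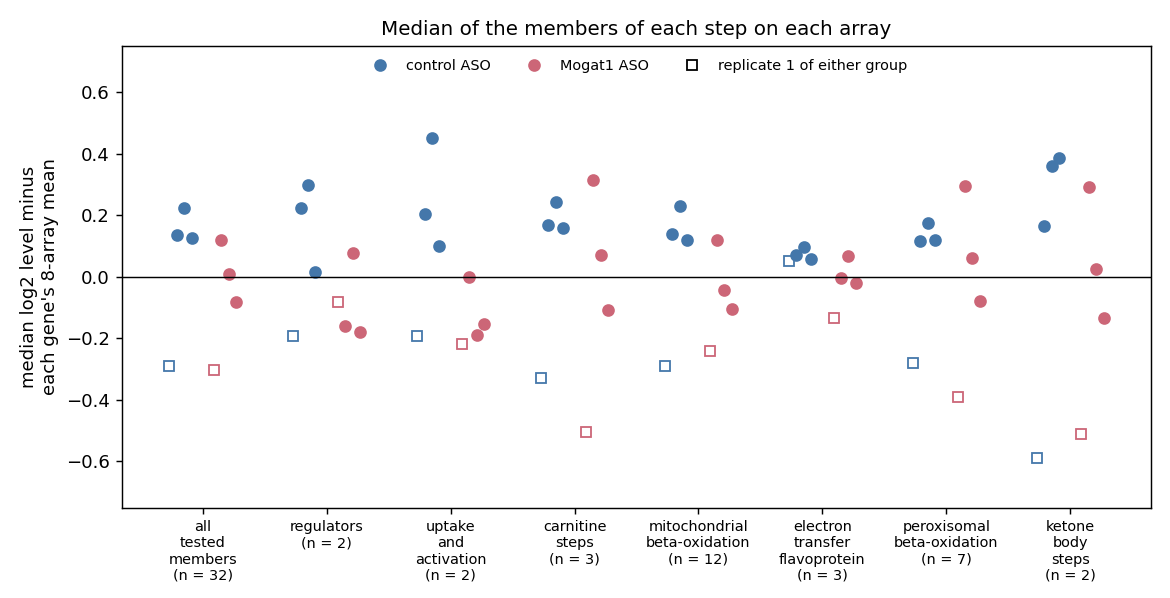
Median over the genes of each step of the centred log2 level on each array; replicate 1 of either group is an open square, and Pdk4, alone in its step, is left out of the single steps. Replicate 1 of both groups is low for the ketone genes, at -0.59 and -0.51.

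Several other measures also lay at the edge of their group on either of these arrays, but not always on both or in the same direction. Control replicate 1 had the lowest median signal of the 8 arrays (84.25) and the most detected probes of its group (16864). Mogat1 ASO replicate 1 had the fewest detected probes of the 8 (15788), with a median signal of 92.1 inside the range of its group. The summed linear level of the adipocyte markers was lowest in each group on replicate 1 (1280 and 619, group ranges 1280 to 6590 and 619 to 1590). Of these markers, Adipoq, Retn, Plin1, Fabp4 and Ucp1 were detected on no array. The others were Cfd, Cidea and Lep, with mean log2 levels of 10.27, 8.61 and 5.96 over all arrays. The adipocyte sum thus rests mainly on Cfd and Cidea. The erythroid sum was 114000 on Mogat1 ASO replicate 1, the highest of its group (49300 to 114000), and 55600 on control replicate 1 (47000 to 80800). Control replicate 1 was also the highest control for the hepatocyte (211000), macrophage (18300) and stellate sums (11800, control range 8940 to 11800), while Mogat1 ASO replicate 1 was the lowest of its group for macrophages (19000). Hepatocyte sums were 191000 to 211000 in controls and 191000 to 200000 with the Mogat1 ASO, and 0 of 6 tested hepatocyte markers passed the limma test (1, Hnf4a at -0.29, had an unadjusted p under 0.05, adjusted p = 0.0942). Macrophage sums were 14200 to 18300 and 19000 to 26300, with 5 of the 16 tested markers higher and 1 lower. For endothelial markers 1 of 10 was higher and 1 lower, for stellate markers 1 of 7 was lower, and none of the 2 muscle, 3 lymphocyte, 5 erythroid and 3 adipocyte markers tested passed; Cfd, an adipocyte marker at -1.41 (limma adjusted p = 0.06003), was the single one of these at an unadjusted p under 0.05. The part of any of these in the member values was not tested.

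With replicate 1 of both groups left out (3 mice against 3), 6 of the 32 tested members were lower and 1 higher. The background rose as well, to 10.5% of all tested genes in each direction. Replicate 1 was the lowest array of its group for most members in these same data. A narrower spread and added calls therefore follow in part from which arrays were left out, and are not independent results. Eci2 fell by 0.64 (limma adjusted p = 0.00390) and Slc27a2 by 0.48 (adjusted p = 0.00525). Hadhb (-0.45, adjusted p = 0.0251), Acat1 (-0.49, adjusted p = 0.0287), Acadm (-0.26, adjusted p = 0.0316) and Acadsb (-0.43, adjusted p = 0.0446) were the other lower genes in that limma fit. Decr2 was the gene that rose (0.39, limma adjusted p = 0.0318). Among the members that did not pass, the difference of some moved by more than 1.5 times. It was larger for Ppara (-0.40), Acadl (-0.42), Cpt2 (-0.22), Cpt1b (0.27), Pex11a (0.31), Acaa2 (0.09) and Etfa (0.03), and smaller for Bdh1 (0.0078), Etfb (-0.06) and Hadh (0.005), while Acads turned from 0.05 to -0.01. The median difference over the members was -0.17, about where it had been with all arrays, and the median within-group SD was 0.156, near the 0.148 of all tested genes.

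**Figure D5:**
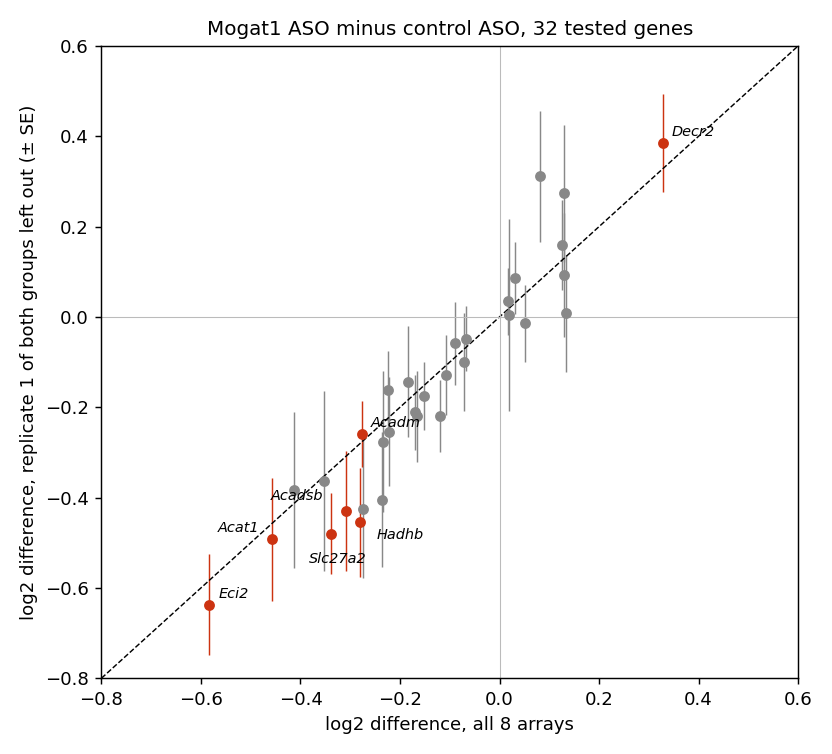
Log2 difference of each tested gene with all 8 arrays (x axis) and with replicate 1 of both groups left out (y axis, bars ± SE); the dashed line marks equal values and red points passed the test without replicate 1. The 7 red points are Eci2, Acat1, Slc27a2, Acadsb, Hadhb, Acadm and Decr2, and only Eci2 had passed with all arrays.

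A wider list of 99 other genes of the same pathways was read from the same fit: 95 were on the array and 83 were tested. Of these, 8 fell, 1 rose and 74 did not pass, with a median difference of -0.06. The lower genes were 9.64% of the list and the higher gene 1.2%, beside the 6.12% and 7.14% of all tested genes, and no test was made of the list. The list was chosen with earlier results of these data known, which may have shaped its shares of calls. By group, the calls were 1 higher and 1 lower of 13 partners and upstream controls of PPAR-alpha, 1 lower of 12 in uptake and activation, 1 lower of 13 in mitochondrial oxidation, 3 lower of 24 in the peroxisome, 0 of 6 in ketone body steps and 2 lower of 15 PPAR-alpha targets. At an unadjusted p under 0.05 in the limma fit, these groups held 4, 2, 2, 6, 2 and 4 genes in the same order, 24.1% of the 83 together, beside 28.8% of all tested genes. The peroxisomal genes that fell were Hacl1, which cleaves one carbon from branched and 2-hydroxy acids (difference -0.92, 1.89-fold lower, limma adjusted p = 0.00390), Nudt7, which hydrolyses coenzyme A (-0.71, 1.63-fold lower, adjusted p = 0.00701), and Ephx2, the soluble epoxide hydrolase (-0.61, 1.52-fold lower, adjusted p = 0.00936). All 4 tested Nudt7 probes were lower, by 0.56 to 0.84.

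Acot1, a cytosolic thioesterase that frees fatty acids from coenzyme A, had the largest change of the list (difference -1.87, SE 0.29, 3.65-fold lower, limma adjusted p = 0.00274), and its second tested probe differed by -1.50. Acot1 has near-identical copies in the mouse genome, so its value is uncertain. Acacb, which makes the malonyl-CoA that inhibits Cpt1, fell 2.49-fold (difference -1.32, adjusted p = 0.0228), and without replicate 1 of both groups it stood at -1.08 (adjusted p = 0.0579). Pcca, of the propionyl-CoA carboxylase, fell by 0.56 (adjusted p = 0.00728), Tmem135, a peroxisome-associated membrane protein, by 0.47 (adjusted p = 0.0322) and Dbi, the acyl-CoA binding protein, by 0.24 (adjusted p = 0.0485). The calls of Acacb, Tmem135 and Dbi were lost under 6, 8 and 11 of the 20 other settings. Prkaa2, a catalytic subunit of AMP-activated kinase, rose by 0.47 on its brighter probe (adjusted p = 0.0136) but differed by -0.64 on a dimmer one (adjusted p = 0.0821), and the mean of both probes differed by -0.08.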

How the data were processed

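Per the file headers, the deposited non-normalized values pair an intensity with a detection p-value, probe by probe, for 45281 probes and 8 arrays. The authors' detection p-value was taken in its usual sense, the fraction of negative control beads that reach the brightness of the probe. A processed intensity was also deposited and served as an alternative; its software is not stated in the labels or headers. Symbols were updated through RefSeq (27740 current, 8037 updated, 122 with several matches, 9382 unmatched). Background was corrected by normexp and arrays were quantile normalized, then log2 was taken after adding 16 (limma 3.58.1, R 4.3.3, data.table version 1.17.8). A probe was tested if its detection p was below 0.05 on 4 or more arrays. The two-sided test was limma's lmFit and eBayes with a variance trend, Benjamini-Hochberg adjusted over the 16487 such probes. The brightest tested probe stood for a gene. The fit was tested on simulated data. Promoters were searched in Python 3.11.15 and figures drawn with matplotlib 3.10.9.

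Members, wider list and marker lists were chosen with earlier results of these data known. Array values are given for members past the threshold, members with groups that do not overlap, the largest differences up to 14 members, and anchors of the steps; of the wider list, up to 10 genes past the threshold are named. Alternatives covered background, normalization, offset, filter, probe choice, variance, array weights, a replicate block and leaving out arrays. Values of some genes of the wider list are not reported here.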

Additional observations from a re-analysis of the deposited data

Results flagged for a closer look

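In 64 groups of 4 values (32 genes, 2 groups each), the gap between the most extreme array and its nearest neighbour, divided by the range, passed Dixon's 95% critical value for 4 samples in 4 groups, where chance flags about 1 in 20. In 3 of the 4 the array was replicate 1 and the lowest. Cpt2 stood at 11.97 on control replicate 1, with the next array at 12.45. Bdh1 stood at 11.57 on the same array, with the next at 12.49. Acaa2 stood at 13.24 on Mogat1 ASO replicate 1, with the next at 13.51. Creb3l3 stood at 10.89 on Mogat1 ASO replicate 3, the highest of its group, with the next at 10.75.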

How the results depend on the processing

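Across 20 other settings, Eci2 kept its call (limma adjusted p 0.00217 to 0.0282) and the median difference of the members stayed between -0.24 and -0.09. Of 638 member values under other settings, 0 reversed a call, 0 lost one and 17 gained one, and 22 of 32 members kept one sign throughout. Members past the threshold numbered 1 with all arrays, 2 with robust variance (adding Slc27a2), 4 with array weights, 7 without replicate 1 of both groups, and 1 to 5 with 1 array left out (5 without control replicate 1, 3 without Mogat1 ASO replicate 1). All genes past the threshold numbered 1549, 2610 with array weights, 2446 without replicate 1 of both groups, and 886 to 2261 with 1 array left out. Other pathway genes past the threshold numbered 9, 16 with array weights, 17 without replicate 1 of both groups, and 6 to 14 with 1 array left out. With the mean of its probes, Prkaa2 turned to a difference of -0.0831 and did not pass the test. Its call was also lost with median scaling (limma adjusted p = 0.0624). Calls were lost for Dbi in 11 settings, Tmem135 in 8 and Acacb in 6. The cause of these changes was not tested.

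The samples were analysed as unpaired, and correlations cannot show whether replicate numbers pair the mice. Same-numbered arrays of the 2 groups correlated at 0.199, 0.079, -0.031 and 0.00 in their deviations from the group means over all tested probes. Over the tested members these values were 0.485, -0.039, 0.035 and 0.369. Not every array correlated best with its own number: control replicate 4 and Mogat1 ASO replicate 2 correlated at 0.268 and 0.693. With a replicate block, 2 members (Acadm added, adjusted p = 0.0367) and 15 other pathway genes passed. A slide block was not run, since the headers give no slides. The number of arrays limits the precision, and dim probes have only a bound.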
